A study of Mus musculus with 8 samples.

Results

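Neurons were a small class in these single-cell suspensions of mouse brain and glioma. They were taken as the barcodes that held at least 20 UMIs (unique molecular identifiers, each counting 1 captured transcript) per 10,000 of 7 neuronal genes together, with at least 3 of the 7 detected. These genes were Snap25, Syt1, Snhg11, Meg3, Arpp21, Penk and Chgb. Barcodes with 10 or more UMIs per 10,000 of the tumour genes Col9a1, Lect1 and Rhox5, or with any UMI of Dlx1, Dlx2 or Dlx6os1, were left out. The rule was applied to the 1000 barcodes with most UMIs in each library, where at least 500 genes were detected. It found 66 cells among 7861 such barcodes. Because the cells were chosen by their measured levels of these 13 genes, their difference from other cells is a description and was not tested. The study gives the name neural stem cells to a cluster marked by Meg3, Snap25, Syt1 and Snhg11. It kept only cells with at least 1000 genes, and the 66 cells were not matched to that cluster.

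The libraries were made by Drop-seq, which reads the 3′ ends of transcripts in droplets, from C57BL/6 mice (C57BL/6N in the study's methods) that were either WT or KO for Acod1 (also called Irg1), the gene of the enzyme that makes itaconate in activated myeloid cells. The KO allele carries an inserted cassette in every cell of the mouse. There was 1 library for each genotype in each of 4 conditions, 8 in all: naïve brain, and the dissected core of early (5 to 10 mm3), intermediate (20 to 25 mm3) and late (30 to 35 mm3) tumours grown from 500 implanted GL261 cells, a mouse glioma line. Each tumour library came from 1 mouse, each naïve library carries the identifiers of 2 mice, and the mice were age-matched with no age stated in the sources used here. The submitters' protocol notes place the implant in the right striatum and the study's methods in the frontal cortex, so the site is uncertain. Naïve brain and tumour core were different tissue samples, so that the effect of a tumour and of the place sampled cannot be told apart.

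Neurons signal by releasing transmitter from synaptic vesicles when calcium enters through voltage-gated channels. Most neurons of the cortex and hippocampus release glutamate. Most neurons of the striatum are GABA-releasing spiny projection neurons of a pair of kinds, one with dopamine receptor Drd2 and enkephalin (Penk), the other with dopamine receptor Drd1, substance P (Tac1) and dynorphin (Pdyn). Neural stem cells instead carry glial and cell cycle genes, and the neuroblasts made from them carry Dlx genes, Dcx and Sox11.

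The deposited tables held 3000 barcodes and 2885345 to 9950713 UMIs a library, and 892 to 1000 barcodes a library were kept. The 66 cells had 867 to 32155 UMIs each, with a median of 1793.5. In 13 of them another cell class was ahead, as described further on. The 5% of each library with the highest doublet score by Scrublet held 4 of them in WT naïve, 3 of the 4 in KO naïve and 1 in KO intermediate. Of all kept barcodes, 2 occurred in more than 1 library and 0 of those were among the 66. The share of UMIs from the mitochondrial genome had library medians of 2.05% to 7.03% in these cells except in WT early, where it was 15.2%. Xist, a transcript of female cells, had 1552 UMIs below the tumour gene limit in WT early, 915 in KO intermediate, 1 in WT naïve and 0 in the others, so sex differed between libraries, and both naïve libraries all but lacked it. Acod1 UMIs were found in the 3 KO tumour libraries too (28 to 31 each) and so do not check the genotype labels. The 66 cells themselves had 0 Acod1 UMIs.

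WT naïve brain gave the most neurons in number, and KO early and WT intermediate tumours the fewest. WT naïve held 26 of the 66 cells, KO naïve 4, WT early 10, KO early 3, WT intermediate 3, KO intermediate 8, WT late 4 and KO late 8. As a share of barcodes below the tumour gene limit, neurons were 2.66% in WT naïve (exact 95% binomial interval 1.75 to 3.88) and 0.45% in KO naïve (0.123 to 1.15). The intervals of the naïve libraries thus did not overlap. The early libraries held 1.44% in WT (0.692 to 2.63) and 0.923% in KO (0.191 to 2.67). The intermediate libraries held 3.80% in WT (0.790 to 10.7, from only 79 barcodes) and 2.04% in KO (0.883 to 3.97). The late libraries held 1.61% in WT (0.439 to 4.06) and 2.01% in KO (0.872 to 3.92). Intervals and limits cover counting error only. These shares count all 66 cells, also the 13 led by another class. Without those 13, the libraries held 23, 3, 7, 1, 2, 6, 4 and 7 neurons in the order above.

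These shares asked whether neurons were rarer in tumour cores or in KO mice, and neither difference was beyond the spread between libraries. The mean share was 1.97% over the 6 tumour-bearing libraries and 1.56% over the 2 naïve ones, a difference of 0.41 percentage points (two-sided exact permutation test over libraries, p = 0.679, where 0.0357 is the smallest p this design allows). Without KO naïve the difference was -0.70, and without the 13 cells led by another class the mean shares were 1.46% and 1.35% (two-sided exact permutation test, p = 0.893). The mean share was 1.35% in KO and 2.38% in WT, a difference of -1.02 (exact permutation within condition, p = 0.25). The smallest p possible there is 0.125, so that test could not pass 0.05.

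**Figure D1:**
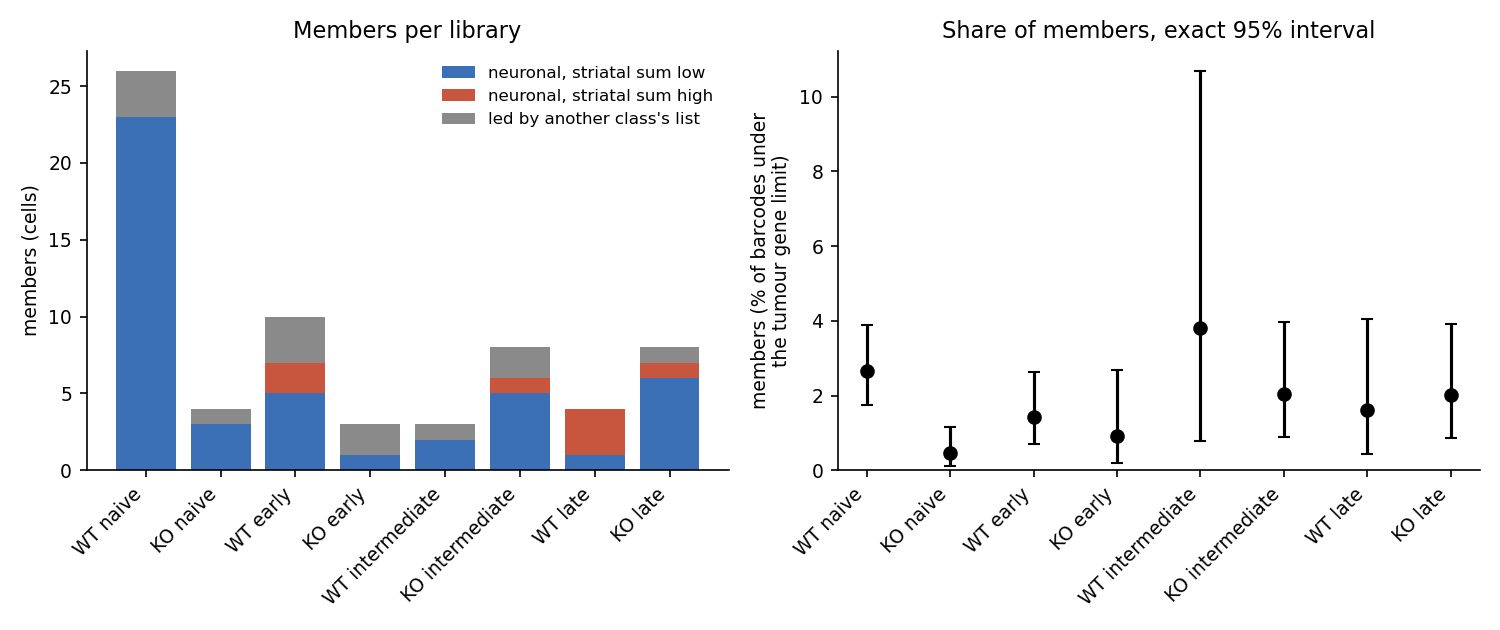
Neurons found in each of the 8 libraries. The left panel stacks cells per library by kind, and the right panel gives the neurons as a percentage of barcodes below the tumour gene limit with exact 95% intervals. WT naïve holds 26 cells, and the WT intermediate share of 3.80% has the widest interval.

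The 7 genes of the rule were not spread evenly over the 66 cells. Snap25 and Syt1, the docking protein and the calcium sensor of vesicle release, had 462 and 519 UMIs, in 59 and 57 of the cells. The long noncoding RNAs Meg3 and Snhg11 had 1201 UMIs in 62 cells and 681 UMIs in 56 cells. Chgb, a granin of dense-core granules, had 195 UMIs in 44 cells and Arpp21, a cAMP-regulated phosphoprotein, had 317 in 52. The enkephalin precursor Penk was the exception, with 92 UMIs in only 9 cells, so nearly all cells were chosen without it. Among cells not chosen, the Dlx-positive cells were the class with the next highest CPM (UMIs scaled to 1e6 in all) of all but Arpp21: the level in the chosen cells was 2.7 times theirs for Meg3, 4.3 for Snhg11, 4.6 for Penk, 5.6 for Chgb, 5.8 for Snap25 and 6.4 for Syt1.

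In all 8 libraries the summed level of the 7 genes was close, at 143 UMIs per 10,000 in KO intermediate to 196 in KO naïve. Meg3, an imprinted transcript on chr12:109541001-109571726 (+ strand, GRCm38), had 342 UMIs in WT naïve, 123 in KO naïve, 201 in WT early, 45 in KO early, 50 in WT intermediate, 281 in KO intermediate, 109 in WT late and 50 in KO late. Snap25, at chr2:136713453-136782428 (+ strand), had 109, 21, 25, 6, 70, 163, 24 and 44 in the same order. Both transcripts were thus found in every library. Penk, at chr4:4133531-4138819 (- strand), had 3, 3, 34, 0, 0, 0, 48 and 4, so that 2 libraries held most of its UMIs.

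At the edge of the rule lay cells with few UMIs of the 7 genes. The 3 cells just inside had 20.0, 21.3 and 23.6 UMIs per 10,000, and the 3 just outside had 18.0, 16.9 and 16.2. Of 123 barcodes with the summed level, 43 had fewer than 3 of the genes, 1 was over the tumour gene limit and 13 had a Dlx UMI.

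Genes outside the rule separated the 66 cells into 3 kinds, set after the values were seen and therefore given without a test. In 13 cells the gene list of another class summed higher than the 3 neuronal lists that the rule had not used, which cover synaptic vesicles, neurosecretory granules and the neuronal cytoskeleton. A further 7 cells held 152 to 260 UMIs per 10,000 of a list of 28 genes known from striatal projection neurons, where the highest of the other 59 cells reached 54.5. These are called striatal-high here. In the remaining 46 cells the 3 neuronal lists summed to a median of 275 UMIs per 10,000 (49.0 to 436). The highest list of another class reached at most 41.4 there. The lowest of these cells, at 49.0 in WT naïve, had 29.4 of the astrocyte list and 0 Snap25 UMIs. Other classes were not free of the 3 lists, which in the order above stood at 10.8, 51.4 and 12.6 UMIs per 10,000 in astrocytes. In oligodendrocyte precursor cells they stood at 17.7, 13.5 and 36.1.

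**Figure D2:**
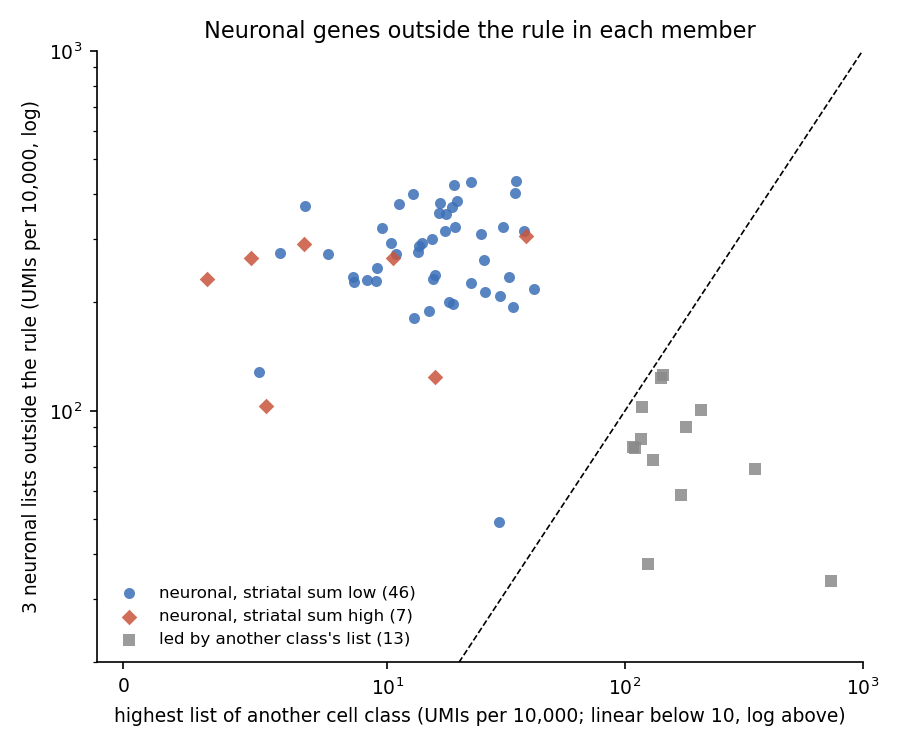
Each of the 66 cells by its summed UMIs per 10,000 of the highest list of another cell class (horizontal, linear below 10 and log above) and of the 3 neuronal lists outside the rule (vertical, log). The dashed line marks equal sums. The 13 grey squares, led by another class, lie right of it, and the other 53 cells lie left of it.

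By which list led, the label of mature neurons held for 53 of the 66 cells and went against the genes of the other 13. The 3 neuronal lists hold 28, 20 and 22 genes and each list of another class 8 to 18, which favours the neuronal side. For 1 of the 53, the WT naïve cell at 49.0, the label stayed doubtful, as astrocytes held 51.4 of the granule list alone. Of the 13, the list of oligodendrocyte precursor cells (OPCs) led in 9, that of microglia and myeloid cells in 2, and those of astrocytes and endothelial cells in 1 each. They sat near the edge of the rule, with a median of 31.2 UMIs per 10,000 of its 7 genes (20.0 to 107), against 163 (76.3 to 494) in the remaining 46. Together they had 38 UMIs of the growth factor receptor Pdgfra, 25 of the proteoglycan gene Cspg4, 72 and 23 of the transcription factors Olig1 and Olig2, and 105 of the phosphatase gene Ptprz1. The remaining 46 cells had 0, 0, 1, 0 and 0 UMIs of these. The 13 cells came from every library but WT late, with 3 each in WT naïve and WT early, 2 each in KO early and KO intermediate, and 1 each in KO naïve, WT intermediate and KO late.

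Genes of vesicle release were high in the remaining 46 cells. These 28 genes summed to 109 UMIs per 10,000, against 78.5 in the striatal-high cells, 23.1 in the 13 led by another class, 27.1 in 65 Dlx-positive cells and 17.7 in 64 OPCs. Taken over all 66 cells, 26 of the 28 were higher in CPM than in every reference class. In the 46 cells Syt11 (a synaptotagmin) had 147 UMIs in 34 cells, Pclo (the active zone scaffold piccolo) 111 in 32, Cplx2 (complexin) 99 in 24 and Syn2 (a synapsin on vesicles) 95 in 26.

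Genes of neuronal peptides and granules were more uneven, with 51.6 UMIs per 10,000 in the remaining 46 cells, 40.6 in the striatal-high cells and 51.4 in astrocytes, and 13 of 20 genes higher in the 66 cells than in every reference class. The list thus summed to nearly the same in astrocytes as in the 46 cells, and the carboxypeptidase gene Cpe, with 118 UMIs in 32 of the 46 cells, was highest in astrocytes. The convertase gene Pcsk2 had 89 UMIs in 31 cells and its inhibitor gene Pcsk1n 55 in 27. The granin gene Scg2 (chr1:79434669-79440120, - strand) had 17 UMIs in WT naïve, 4 in KO naïve, 1 in WT early, 0 in KO early, 80 in WT intermediate, 14 in KO intermediate, 2 in WT late and 5 in KO late. WT intermediate, with 3 of the 66 cells, thus held 80 of its 123 UMIs.

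The promoters of Chgb and Scg2 hold the cAMP response element TGACGTCA, a motif that reads alike on both strands and is known as a binding site of CREB factors. They are shown because granin genes are textbook examples of genes with this element, and Meg3 because it is the rule gene with most UMIs. Each stretch of 30 bases comes from the RefSeq promoter table (GRCm38.p6), runs 5′ to 3′ on the strand of its gene and has the element in capitals. The element lies 72 to 65 bases before the RefSeq start of Chgb (chr2:132781559-132781588, +) and 57 to 50 before that of Meg3 (chr12:109540928-109540957, +). It lies 68 to 61 bases before the RefSeq start of Scg2 (chr1:79440076-79440105, -). The gene coordinates in this text are from GENCODE, whose starts can differ. By those, the stretches of Chgb (gene at chr2:132781278-132795079) and Scg2 lie inside the gene, and that of Meg3 lies before it.
Chgb: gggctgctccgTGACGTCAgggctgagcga
Meg3: gcagaatgcgcTGACGTCAaagaccacccc
Scg2: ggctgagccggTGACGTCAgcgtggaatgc
Of 32851 promoters of 300 bases in that table, 588 (1.79%) hold the element. It was in 2 of the 5 rule genes with an entry, in 4 of 18 neurosecretory genes (Cartpt, Pcsk1, Scg2 and Sst), in 1 of 21 vesicle genes and in 1 of 24 striatal genes. Cartpt and Sst nevertheless had 0 UMIs in the 66 cells, and a match is a description of the letters only.

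Cytoskeletal genes of axons and dendrites summed to 150 UMIs per 10,000 in the remaining 46 cells, 126 in striatal-high cells and 87.0 in Dlx-positive cells. Rtn1, a reticulon of neuronal membranes, had 283 UMIs in 41 of the 46 cells, the microtubule protein gene Map1b 195 in 36, and Ndrg4 159 in 27. Stmn2, which regulates microtubules in growing axons, had 151 UMIs in 33 cells (1127 CPM, exact Poisson interval 954 to 1322), and 1229 CPM in Dlx-positive cells. So this list and Stmn2 were not far from the level in Dlx-positive cells. Of the 22 genes of the list, 11 were higher in the 66 cells than in every reference class. RNA regulators stood at 43.8 UMIs per 10,000, with the RNA-binding protein genes Celf2 at 82 UMIs in 34 cells and Celf4 at 68 in 22.

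The receptors and channels of a mature synapse set these cells further from Dlx-positive cells. The glutamate and GABA receptor list reached 90.5 UMIs per 10,000 in the remaining 46 cells and 88.9 in the striatal-high cells, against 21.5 in Dlx-positive cells and 22.4 in OPCs. The AMPA receptor subunit gene Gria2 had 260 UMIs in 42 of the 46 cells (1941 CPM, 1712 to 2192) and Gria3 had 106 in 31. The NMDA receptor subunit genes Grin2b and Grin2a had 146 UMIs in 40 cells and 80 in 29. Grin2b was at 1090 CPM here, 43.5 in Dlx-positive cells and 0 in OPCs, whereas Gria2 was at 1011 and 1047 CPM in those, so the receptor subunits differed in how far they marked neurons.

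Voltage-gated channels stood at 49.0 UMIs per 10,000 in the remaining 46 cells and 48.6 in the striatal-high cells, against 7.79 in OPCs, and 20 of 22 genes were higher in the 66 cells than in every reference class. The calcium channel subunit gene Cacna2d1 had 89 UMIs in 31 of the 46 cells and the sodium channel gene Scn8a 58 in 22. Calcium and cAMP signalling genes summed to 197 in the 46 cells and 222 in striatal-high cells, against 33.7 to 54.4 in the reference classes. The calmodulin gene Calm2 had 407 UMIs in 42 of the 46 cells. The calcineurin subunit gene Ppp3ca was higher in striatal-high cells (4308 CPM, 3626 to 5081) than in the 46 cells (1620 CPM, 1411 to 1850).

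Stem cell and cell cycle genes were close to absent. The 18 genes of the neural stem cell list summed to 0.75 UMIs per 10,000 in the remaining 46 cells, 1.22 in the striatal-high cells, 31.7 in Dlx-positive cells and 37.8 in astrocytes, and 38 of the 46 cells had 0 UMIs of the list. Gfap, Mki67, Top2a, Egfr, Fabp7 and Pax6 had 0 UMIs in the 46 cells and Sox2 had 1. The neuroblast list stood at 11.9 UMIs per 10,000 against 142 in Dlx-positive cells, and of its genes Dcx had 11 UMIs in 5 of the 46 cells and Sox11 had 9 in 6. The rule left out cells with a Dlx UMI, and Dlx-positive cells were chosen by such UMIs. That gap was thus partly set by the choice of cells and does not show that neuroblasts were absent. The 13 cells led by another class held 16.5 UMIs per 10,000 of the stem cell list.

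**Figure D3:**
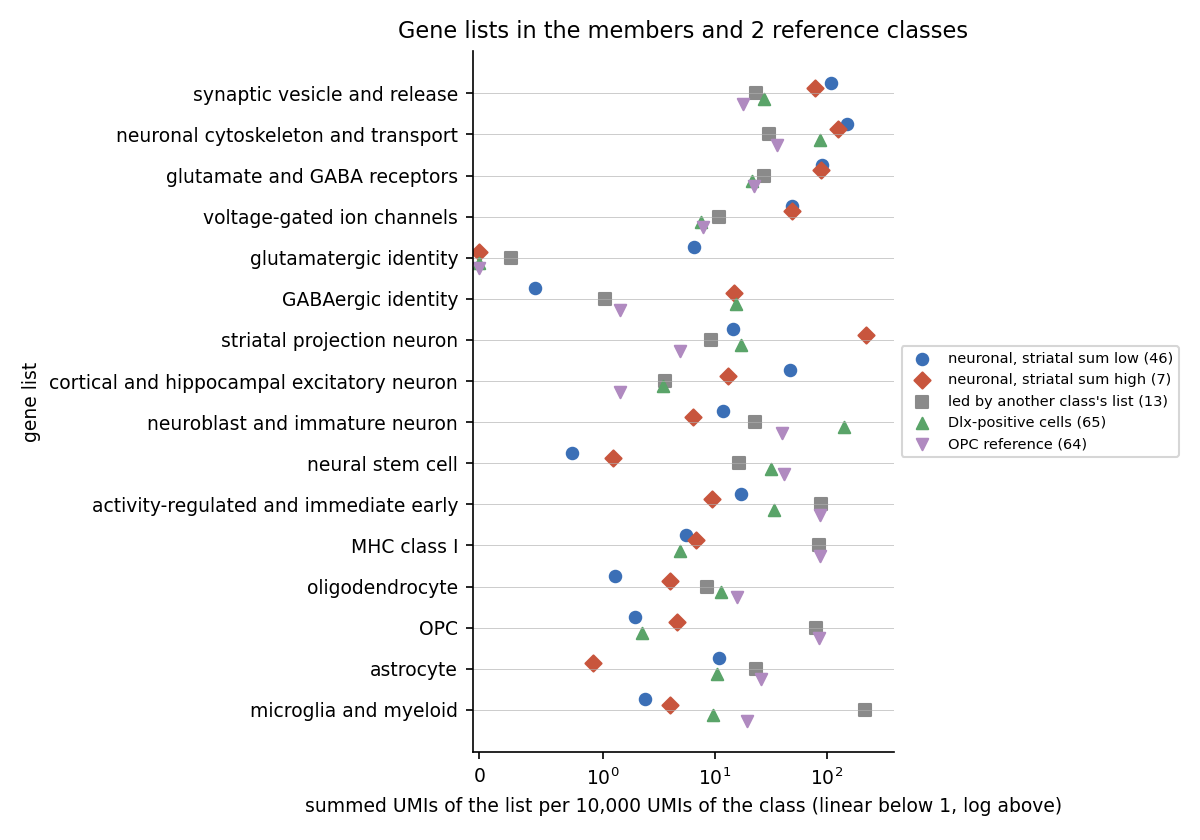
Summed UMIs per 10,000 of gene lists (horizontal, linear below 1 and log above) in the 3 kinds of cells taken by the rule and in Dlx-positive cells and OPCs. Synaptic, receptor and channel lists are highest in both neuronal kinds, the striatal list in the 7 striatal-high cells (225), and the neuroblast list in Dlx-positive cells (142). The striatal-high cells were set apart by the striatal list itself, and the Dlx-positive cells were chosen by Dlx UMIs.

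Outside the lists, 15 genes had the highest ratio of the level in the 66 cells to that in any reference class. They were Ryr2, Lamp5, Nptxr, Chn1, Scn2a, Caln1, Rasgef1a, Cpne5, Atp2b2, Ano3, Cnksr2, Cx3cl1, Arhgap32, Kalrn and Atp2b1. Nptxr, a receptor for neuronal pentraxins at synapses, had 167 UMIs in 39 of the remaining 46 cells, and Scn2a, a sodium channel gene, had 128 in 36. Atp2b1, a calcium pump of the cell membrane, was at 2986 CPM (2700 to 3293) in the 46 cells and 7516 (6606 to 8517) in the striatal-high cells. Nptxr went the other way, at 1247 and 61.1 CPM.

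Most cells with a transmitter transcript among the remaining 46 were glutamatergic. Slc17a7 and Slc17a6, the genes of the vesicular glutamate transporters, were found in 24 cells with 87 UMIs, and genes of GABA synthesis and transport, Gad1, Gad2 and Slc32a1 among them, in 1 cell with 6 UMIs. No cell had both and 21 cells had neither. This split depends on how the 46 cells were chosen. GABA genes were in 50 of the 65 Dlx-positive cells, left out by the rule, and in all 7 striatal-high cells, set apart above. It is therefore not the transmitter make-up of all neurons in these libraries. Cells with a transmitter UMI had a median of 2042 UMIs in all and cells without one 1300, so detection moved with depth. Slc17a7 was in 23 of the 46 cells (27.2% when each cell is thinned to 867 UMIs). In the 998 cells of the oligodendrocyte class it was in 0.100%. These had a median of 2138 UMIs against 1577.5 in the 46 cells, and oligodendrocytes should lack this gene. The tumour gene limit was not applied to this class. It held 20.0 UMIs per 10,000 of the 3 tumour genes, and only 500 of its cells had 0, so it is not a pure oligodendrocyte background.

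Glutamatergic cells occurred in 7 of the 8 libraries. A UMI of the glutamate genes was in 9 of the 23 remaining cells of WT naïve, 2 of 3 of KO naïve, 2 of 5 of WT early, 0 of 1 of KO early, 2 of 2 of WT intermediate, 4 of 5 of KO intermediate, 1 of 1 of WT late and 4 of 6 of KO late. The interneuron genes Sst, Pvalb and Vip had 0 UMIs in the 66 cells. For these chosen cells, 0 of 66 allows a share of cells with a UMI of up to 4.55%. Among the 65 Dlx-positive cells, which the rule left out, Sst had 63 UMIs and Vip 34, each in 1 cell, and Pvalb had 0. The 4.55% is therefore no limit on interneurons among all neurons of these libraries.

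Genes known from excitatory neurons of cortex and hippocampus went with the glutamatergic ones. Their 14 genes summed to 46.4 UMIs per 10,000 in the remaining 46 cells and 13.1 in the striatal-high cells. Mef2c, a transcription factor of the list, had 243 UMIs in 37 of the 46 cells, the kinase gene Camk2a 121 in 33, and Nrgn (neurogranin, which binds calmodulin) 100 in 27. The peptide gene Cck had 157 UMIs in 26 cells, of which 111 were in 1 cell. That cell, from KO intermediate, had 32155 of the 133968 UMIs of the 46 cells, and also held 83 UMIs of Mef2c. It was among the 5% of its library with the highest doublet score. Without it Cck fell from 1172 to 452 CPM, Mef2c from 1814 to 1572 and Nrgn from 746 to 501, while Meg3 stood at 8810 instead of 7382.

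Within the remaining 46 cells, naïve and tumour-bearing cells differed in several genes, given without a test because cells of 1 library are not replicates. The naïve cells were shallower, with a median of 1289.5 UMIs against 1874.5. Meis2, a homeobox gene, was in 12 of the 26 naïve cells and 3 of the 20 tumour-bearing cells, and the calcium-binding protein gene Calb1 in 12 and 5. Both together were in 9 and 2. At 867 UMIs a cell the share with Meis2 was 35.0% and 5.68%, and in the oligodendrocyte class, not limited in tumour genes, 1.73%. The share with Calb1 was 35.2% and 13.6%, and in the oligodendrocyte class 0.315%. WT naïve supplied 23 of the 26 naïve cells, so that the library and the condition cannot be told apart. Neurod6, a transcription factor of cortical excitatory neurons, was in 1 naïve and 7 tumour-bearing cells, and Camk2a in 17 and 16. At 867 UMIs a cell the shares were 3.28% and 14.1% for Neurod6, and 52.8% and 51.8% for Camk2a. Cck stood at 28.8% and 48.6%, and Vsnl1 at 65.0% and 38.9%.

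The 7 striatal-high cells came only from tumour-bearing libraries, with 2 in WT early, 1 in KO intermediate, 3 in WT late and 1 in KO late. None of the 30 naïve cells was one, and 0 of 30 allows a share of up to 10.0%. Of the tumour-bearing cells, 7 of 36 were. Cells were sorted by values and differ in library and dissection, so this was not tested, and the place sampled and the presence of a tumour cannot be told apart.

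**Figure D4:**
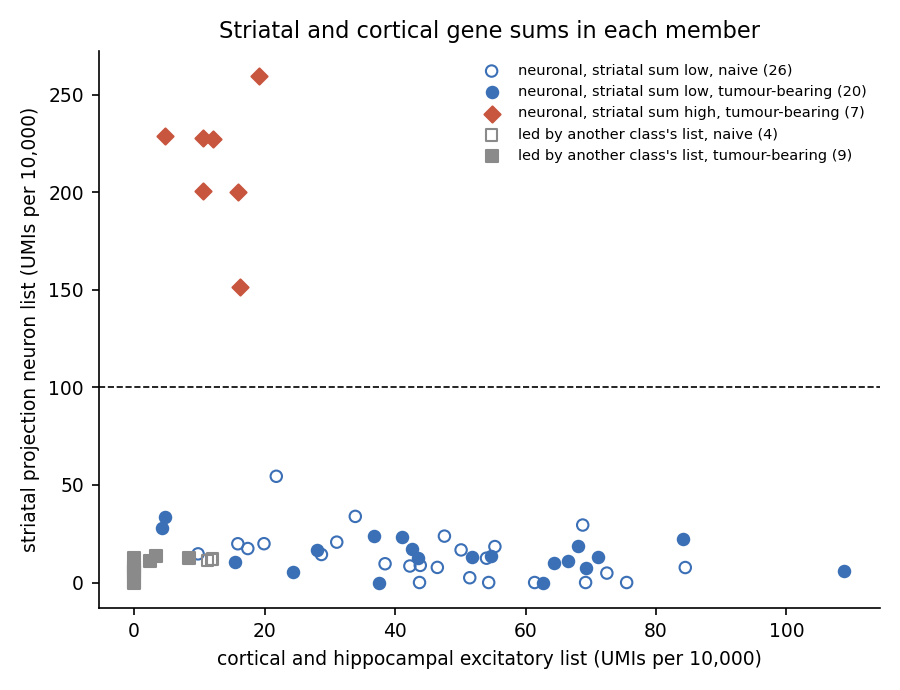
Each of the 66 cells by its summed UMIs per 10,000 of the cortical and hippocampal excitatory list (horizontal) and the striatal projection neuron list (vertical). Open symbols are naïve and filled ones tumour-bearing. The 7 striatal-high cells, all tumour-bearing, lie at 152 to 260 and the others at or below 54.5.

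Every one of the 7 cells held GABA genes and 0 held glutamate transporter genes, at 43 against 0 UMIs. Gad2, which makes GABA, was in 7 of 7 cells with 27 UMIs (825 CPM, 544 to 1200), and in 1 of the remaining 46 with 4 UMIs. The phosphodiesterase gene Pde10a, which marks striatal projection neurons, had 103 UMIs in the 7 cells and 15 in the 46. Ppp1r1b (DARPP-32, the phosphoprotein of dopamine signalling) had 46 and 3, Rgs9 (a regulator of G protein signalling) 49 and 3, and Adcy5 (an adenylyl cyclase) 31 and 0. The transcription factor genes Foxp1 and Meis2 had 42 and 38 UMIs in the 7 cells, and Meis2 had 31 in 15 of the 46. Pde10a, Foxp1 and Meis2 belong to the striatal list by which the 7 cells were set apart. Their excess there thus follows from the sorting and is no separate evidence. Olfm1 and Vsnl1 went the other way, in 44 and 36 of the 46 cells and in 0 of the 7.

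Of the 7 cells 3 held Penk and the other 4 held Tac1, 1 of these at a single UMI. Penk and Tac1 are the peptides of the pair of known projection neuron kinds. Penk UMIs were in 3 cells, with 34 in a WT early cell and 29 and 19 in a pair of WT late cells. These 3 cells, with 11065 UMIs in all, held 5 UMIs of Drd2 and 4 of Adora2a, the adenosine receptor gene that goes with Drd2, but 0 of Drd1 and 0 of Pdyn. Tac1 was at 4 UMIs in 1 of them. The other 4 cells, with 21664 UMIs, had 0 UMIs of Penk, Drd2 and Adora2a, and 37 of Tac1, 8 of Pdyn and 4 of Drd1.

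Among these 4 cells the Tac1 counts were 14 in the KO late cell, 13 in a WT late cell, 9 in the KO intermediate cell and 1 in a WT early cell, which was the shallowest of the 7 at 1847 UMIs. Drd1 was found in the WT late cell with 1 UMI and in the KO intermediate cell with 3. In the remaining 46 cells Tac1 and Drd2 had 0 UMIs and Penk 10 in 6 cells. Among the 13 cells led by another class, however, 2 had 1 Tac1 UMI each. The single Tac1 UMI of the WT early cell, which had 0 of Drd1 and Pdyn, thus does not place that cell. So each of the 3 cells with Penk lacked Drd1 and Pdyn at these depths, and each of the 4 with Tac1 alone lacked Drd2 and Adora2a. Tac1 lies at chr6:7554879-7565834 (+ strand).

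**Figure D5:**
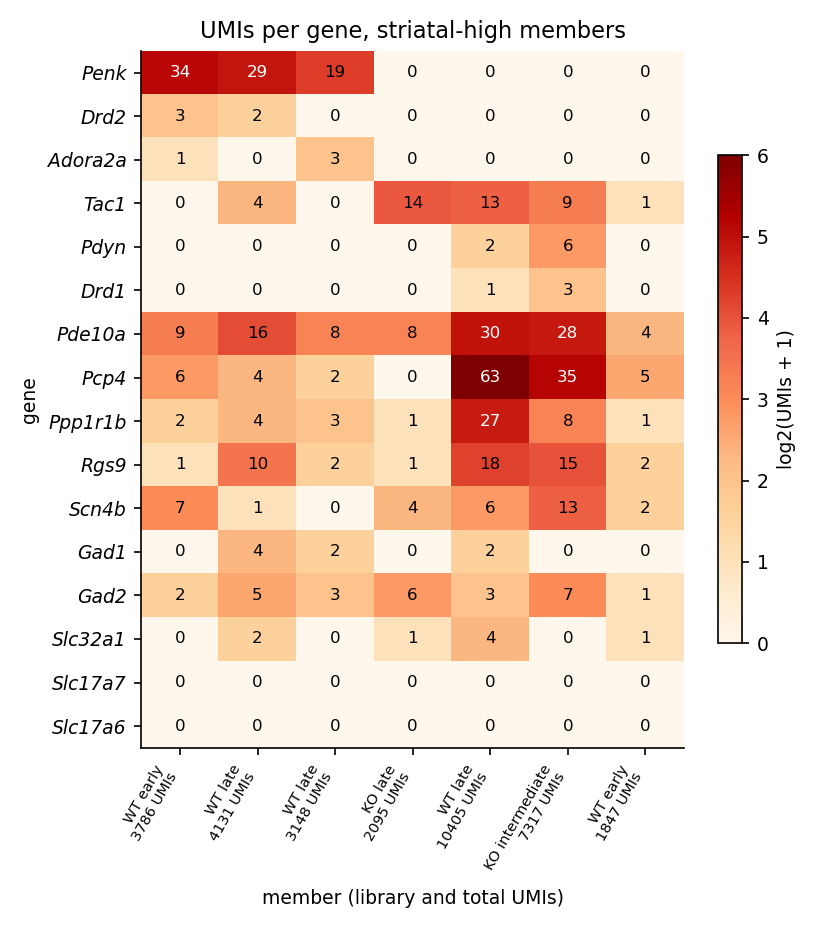
UMIs of 16 genes (vertical) in the 7 striatal-high cells (horizontal, with library and total UMIs), where colour gives log2(UMIs + 1). The 3 columns on the left hold 19 to 34 UMIs of Penk, and the 4 on the right hold 0 of Penk and 1 to 14 of Tac1.

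Mitochondrial transcripts varied most among these 7 cells, from 2.00% to 43.9% of UMIs. The cells with the highest and second highest share of all 66 were both striatal-high cells of WT early, and the remaining 46 cells ranged from 2.08% to 19.0%. The part of this in the values of the WT early library was not tested.

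Immediate early and MHC class I genes were low in the neurons and high in the cells led by another class. The immediate early list stood at 16.9 UMIs per 10,000 in the remaining 46 cells, 9.47 in the striatal-high cells and 89.5 in the 13 cells led by another class, and it was 86.9 in OPCs. Among the reference classes only astrocytes were below the 46 cells, at 9.67. Of 125 Fos UMIs in the 66 cells, 121 were in those 13. MHC class I genes stood at 5.52, 6.72 and 84.9 UMIs per 10,000, and of 235 UMIs of B2m, the light chain of MHC class I, 181 were in the 13 cells and 139 in a single one. The median of the 13 cells was 25.0 for MHC class I and their highest was 303. Of the reference classes only Dlx-positive cells, at 4.89, were below the 46 cells in these genes, so a low level was not particular to the neurons. Homer1, a synaptic scaffold gene of the same immediate early list, was in 26 of the 46 cells with 60 UMIs. The heat shock list was even, at 64.4, 64.2 and 72.8.

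Whether the transcripts of these cells changed with a tumour was asked by summing UMIs per library over all 66 cells and comparing the 6 tumour-bearing libraries with the 2 naïve ones. No gene passed. Of 389 genes tested, 0 (0%) had an edgeR quasi-likelihood adjusted p under 0.05, 15 had an unadjusted p under 0.05, and DESeq2 called 0 as well. The smallest adjusted p was 0.536 and the median log2 difference over all genes was 0.03. With 3 or 4 cells in 4 of the libraries, the depth could show only large differences.

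The gene with the smallest p was mt-Co1, a subunit of cytochrome c oxidase, with 48 UMIs in WT naïve, 54 in KO naïve, 15 in WT early, 3 in KO early, 2 in WT intermediate, 7 in KO intermediate, 8 in WT late and 9 in KO late. The naïve libraries were the highest of all 8 in UMIs (log2 difference -2.85 ± 0.76 SE, edgeR adjusted p = 0.536). Nptxr had 68, 20, 9, 1, 2, 47, 5 and 26 UMIs in the same order (-1.98 ± 0.68, edgeR adjusted p = 0.974), so the groups overlapped. The ribosomal repeat transcript Gm42418 (-2.51) and Cst3 (-3.04) were also among the 5 genes with the smallest p among those lower with a tumour. Of 404 UMIs of Cst3, 188 were in KO naïve, 184 of them in 1 cell, and without the cells led by another class the difference was -0.18.

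Of the genes higher with a tumour, the smallest p were those of Pcp4l1 (log2 difference 3.74), Cacng4 (3.12), Pcp4 (3.61), Ptprz1 (3.47) and Xist, all with an edgeR adjusted p of 0.974 to 0.983. The kinds of cells moved with these genes. All 105 UMIs of Ptprz1 and 56 of the 73 of Cacng4 were in the 13 cells led by another class, and 115 of the 138 of Pcp4 were in striatal-high cells. Xist had UMIs only in WT early (34) and KO intermediate (83), the libraries with Xist in other cells too.

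Without the striatal-high cells 3 of 322 genes passed: mt-Co1 was lower with a tumour (log2 difference -3.08, edgeR adjusted p = 0.0397), and Ptprz1 (4.13) and Xist were higher. With only the 4 libraries of 5 or more cells the naïve arm was 1 library, WT naïve, so the 4 of 1058 genes that passed there (Fos, Jun, Penk and Xist, all higher) set that library against the others and do not test the condition. Fos and Xist had 0 UMIs in it, and Penk is a gene of the rule. Fos, Jun and Penk also moved with the kinds of cells, since 90 of 100 Jun UMIs were in cells led by another class and 82 of 92 Penk UMIs in striatal-high cells.

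By list, 0 genes passed in either direction with a tumour. The median log2 difference was -0.19 over 10 vesicle genes tested, 0.09 over 6 neurosecretory genes, 0.11 over 15 cytoskeletal genes, -0.55 over 10 receptor genes, -0.23 over 12 calcium and cAMP genes and -0.85 over 8 mitochondrially encoded genes, beside 0.03 over all 389 genes. The 4 striatal genes tested had a median of 3.68 and the 3 cortical genes one of -1.38. The striatal list is the one that told the striatal-high cells apart, and those occurred only in tumour-bearing libraries.

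The KO and WT libraries were compared in the same way, with the condition as a block. Of 173 genes tested, 0 (0%) passed in edgeR, 3 had an unadjusted p under 0.05, and DESeq2 called 0. The smallest adjusted p was 0.990. B2m had the smallest p, with 14 UMIs in each naïve library, 8 in each early one, 4 in WT and 149 in KO intermediate, and 15 in WT and 23 in KO late (log2 difference KO to WT 1.91 ± 0.56 SE, edgeR adjusted p = 0.990). Of these UMIs 139 were in 1 cell led by the microglia and myeloid list, and without the cells led by another class the difference was -1.14.

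Apoe (1.66), Fos (1.79), Ank2 (1.01) and Prnp (0.89) were the other genes with the smallest p among those higher in KO. Among those lower were Akap9 (log2 difference -1.34), Nefl (-1.11), Ppp1r9a (-1.10) and Son (-0.92), and all were at an edgeR adjusted p of 0.990. Apoe, the lipid carrier of glia, had 241 of its 256 UMIs in cells led by another class. Nefl, the neurofilament light chain gene, had 25 UMIs in WT naïve and 2 in KO naïve, 5 and 0 in the early, 20 and 40 in the intermediate and 24 and 15 in the late libraries. Scaled to the UMIs of these cells in each library, Nefl stood at 610 CPM in WT naïve and 142 in KO naïve. It stood at 185 and 0 in the early, 1080 and 649 in the intermediate and 1238 and 820 in the late libraries. KO was thus below WT in 4 of 4 conditions, but these values also moved with the kinds of cells. Of 131 Nefl UMIs only 1 was in cells led by another class, and 2 of the 3 KO early cells were such cells. In KO intermediate 33 of the 40 UMIs were in the deepest cell.

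By list, 0 genes passed in KO against WT. The median log2 difference was 0.20 over 6 vesicle genes tested, -0.42 over 9 cytoskeletal genes and -0.11 over 7 calcium and cAMP genes, beside -0.03 over all 173 genes. Each comparison of genotypes within a condition rests on 1 library a side and has no replicate of its own.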

How the data were processed

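The authors made the deposited UMI counts per gene and barcode from Drop-seq reads with the Drop-seq pipeline (bcl2fastq 2.0, FastQC, Picard and STAR, GRCm38/mm10), and the study kept barcodes with at least 1000 genes. Neither depth nor ambient RNA was corrected. From these counts, 1 table per library with its group from the labels, the 1000 barcodes with most UMIs and at least 500 genes were taken and the rule applied (Python 3.11.15, NumPy 2.4.6, SciPy 1.17.1). The cells and the gene lists were chosen with earlier results of these data known. Reference classes were other kept barcodes with at least 20 UMIs per 10,000 and 3 genes of a class list, with no limit on tumour genes. Dlx-positive cells were below the tumour gene limit and had at least 3 UMIs of Dlx1, Dlx2 and Dlx6os1. Striatal-high was set at 100 UMIs per 10,000. Shares of cells were thinned to 867 UMIs, the lowest depth among the cells.

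UMIs were summed per library and tested with edgeR 4.0.16 (R 4.3.3; TMM, filterByExpr, quasi-likelihood test, Benjamini-Hochberg, threshold 0.05), with genotype or condition as covariate. The planned minimum of 5 cells a library left 1 naïve library, so the tests reported use a minimum of 3, chosen after seeing the data. Replicates are single libraries, and p-values measure the spread between them. Alternatives were DESeq2 1.42.0, RLE size factors, no filter, 1000 genes, 40 UMIs per 10,000, Penk and Arpp21 left out of the rule, leaving out libraries, cells led by another class and doublets called by Scrublet (scanpy 1.11.5; 1 of the 66 cells), and, added after seeing the data, without the 5% of each library with the highest doublet score, without striatal-high cells and without the deepest cell. Scripts were tested on simulated data.

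Named genes are the 13 of the rule, the 4 with the highest mean CPM of each list, subtype genes, the 15 outside the lists with the highest ratio to any reference class, and the 5 smallest p-values each way, except a few that are not reported here. Other genes were named after their values were seen: Rgs9, Adcy5, Ppp1r1b, Olfm1, Vsnl1, Neurod6, Scg2, Cartpt, Pcsk1, Dcx, Sox11, Cspg4, Olig2, the absent stem cell genes and those found only in WT intermediate. Coordinates are from GENCODE M21 (GRCm38). UMIs count 3′ ends and are not divided by transcript length.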

Additional observations from a re-analysis of the deposited data

Results flagged for a closer look

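A library whose value lies far from the others was looked for in 17 sets of library values. Most sets were summed gene lists over the neurons of the 6 tumour-bearing libraries. The others were the share of neurons among the WT, the KO and the tumour-bearing libraries. Of the 17 sets 4 had such a library, and all 4 were gene lists. Chance alone would flag about 1 in 20 independent sets, but these sets share cells and are not independent. The glutamatergic list stood at 16.7 UMIs per 10,000 in WT intermediate, where the next library had 4.38. The GABAergic list stood at 13.9 in WT late against 4.92, and the striatal list at 205 in WT late against 45.5. WT late held 4 neurons, of which 3 were striatal-high, so that both of these values rest mainly on the same 3 cells, and the striatal list is the one that told those cells apart. The mitochondrially encoded list stood at 1563 in WT early against 591 in the next library. WT early also held both cells with the highest mitochondrial share. Causes were not tested.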

How the results depend on the processing

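The number of neurons was 53 to 65 under 6 of the 7 other choices of cells and 43 with at least 1000 genes. Leaving out 1 library at a time gave 0 to 0 called genes in both comparisons, a share difference of -0.695 (without KO naïve, the only reversal) to 1.52 percentage points with a tumour and of -1.50 to -0.625 in KO. The comparison with a tumour gave 4 called genes with at least 5 cells a library, where the naïve arm was 1 library, and 3 without striatal-high cells, both added after seeing the data like the setting without the 5% with the highest doublet score. KO against WT gave 1 of 238 with 40 UMIs per 10,000 (Cst3, log2 difference 2.92, edgeR adjusted p = 0.00671). Of the 404 Cst3 UMIs in the 66 cells 184 were in 1 cell of KO naïve and 234 in cells led by another class, without which 0 genes were called. The other settings gave 0. The causes were not tested. Of 323 alternative values of the genes with the smallest p, 315 kept their direction and side of the threshold, 4 passed it and 4 reversed: Gm42418 (0.59 with at least 5 cells a library), Cst3 (0.15 without the highest doublet scores and, leaving out 1 library at a time, -4.50 to 0.42, the latter without KO naïve) and B2m (-1.14 without cells led by another class). Of 77 levels in the remaining 46 cells, 22 left their Poisson interval without the deepest cell. Fits with at least 10 cells a library, and KO against WT with at least 5, could not be made. KO and WT were matched by condition throughout, and beyond that no paired analysis was possible because each group holds 1 library.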

Other observations

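Among the remaining 46 neurons, the 2 from WT intermediate (8380 and 7134 UMIs) shared a set of transcripts that the other 44 nearly lacked. These genes were picked after their values were seen, so they are given as counts with no test. Reln, the secreted guidance protein reelin (chr5:21884454-22344702, - strand), had 11 and 16 UMIs in them and 0 in the other 44. Cdhr1, a cadherin-related gene, had 9 and 6, the transcription factor genes Eomes and Lhx5 had 3 and 4, and 2 and 2, and the peptide gene Crh had 2 and 13, each with 0 in the other 44. Pcp4l1 had 24 and 18 against 1 in all, and Nrip3 17 and 18 against 2.

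Their transmitter genes set them apart as well. Slc17a6 had 12 and 17 UMIs in the pair and 2 in the other 44, where Slc17a7, at 1 and 1, had 54. Scg2 had 40 UMIs in each, against 27 in 16 of the other 44 cells, and Chga 15 and 10 against 9. Mef2c, Nrgn and Meis2, found in 37, 27 and 15 of the other 44, had 0. Reln, Cdhr1, Eomes, Lhx5 and Slc17a6 are known together from mitral and tufted cells, the output neurons of the olfactory bulb. Whether the pair is of that kind was not tested, and genes picked in this way do not settle it. Both cells come from 1 library and 1 mouse, so that the mouse, the place sampled and the stage cannot be told apart.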
